A study of Mus musculus with 2 samples.

Results

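The genes described here are the 7 mouse microRNA genes Mir1a-1, Mir1a-2, Mir1b, Mir133a-1, Mir133a-2, Mir133b and Mir206, of 2202 microRNA genes in the deposited count tables. They were chosen by name, through the GENCODE M21 symbols of the Ensembl identifiers in the tables. That rule uses no measured value, but earlier results of these data were known when the choice was made. Small RNA was sequenced from the gastrocnemius, a large calf muscle, of female B6CASTF1/J mice aged 25 days, first-generation hybrids between C57BL/6J and CAST/EiJ. The 2 libraries are replicates of 1 group without a treatment or a second tissue. By their labels they come from separately numbered females under a shared donor identifier, so whether they are separate animals is not settled. SDs therefore measure the spread between these libraries, which may be technical, and tests compare these libraries only. Replicate 1 held 1573213 counts on the strand of microRNA genes and replicate 2 held 5429127, and levels are given in CPM, counts scaled to a total of 1000000 in each library. A count of 0 allows up to 3 counts, which is 1.91 CPM in replicate 1 and 0.553 CPM in replicate 2. These limits, all intervals and all tests cover counting error only.

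MicroRNAs are cut from hairpins in longer transcripts and repress messenger RNAs that pair with their seed, the bases from position 2 to 8. miR-1, miR-133 and miR-206 are the classic microRNAs of striated muscle: a miR-1 or miR-206 hairpin lies beside a miR-133 hairpin on the same strand, and each such pair can be made from a common transcript under the control of myogenic factors. miR-1 and miR-206 have the same seed and favour differentiation of myoblasts, whereas miR-133 restrains serum response factor and favours their proliferation. miR-206 is typical of skeletal muscle and not of heart.

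The sequences below show the seeds and arms of the chromosome 1 pair, beside an arm of a miR-1a gene. This pair holds the gene with the most assigned reads of the 7. They come from RefSeq (GRCm38.p6), whose microRNA table matched 3 of the 7 genes, Mir206 and Mir133b with both arms and Mir1a-1 with its 5p arm. In the 5 mature sequences the capitals mark the seed.
mmu-miR-206-3p: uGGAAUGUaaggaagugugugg
mmu-miR-206-5p: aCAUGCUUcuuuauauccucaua
mmu-miR-1a-1-5p: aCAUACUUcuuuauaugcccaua
mmu-miR-133b-3p: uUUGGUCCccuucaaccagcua
mmu-miR-133b-5p: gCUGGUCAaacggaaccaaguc

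In the hairpins of the chromosome 1 pair, at chr1:20679010-20679082 and chr1:20682769-20682887 on the forward strand, the capitals mark the mature arms.
Mir206: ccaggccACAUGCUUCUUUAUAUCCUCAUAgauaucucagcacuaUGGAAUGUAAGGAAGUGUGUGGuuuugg
Mir133b: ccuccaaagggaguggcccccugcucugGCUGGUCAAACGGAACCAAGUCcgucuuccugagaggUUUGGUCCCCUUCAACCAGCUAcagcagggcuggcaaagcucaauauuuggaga

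The seed letters of miR-206-3p, GGAAUGU, were found in 3 of the 7 hairpins, those of Mir206, Mir1a-1 and Mir1a-2. Among 1738 mature mouse sequences in the RefSeq table, 2 further ones had this seed, those of Mir6349 and Mir6382, and neither gene had a count in either library. The seed letters of miR-133b-3p, UUGGUCC, were found in the 3 miR-133 hairpins. The 5p arms of Mir206 and Mir1a-1 have the same length of 23 bases and differ at 3 positions, written from miR-206-5p to miR-1a-1-5p and counted from the 5′ end as G5A, C17G and U19C.

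The 7 genes form 3 chromosomal pairs in the mm10 assembly, the build of the tables. On chromosome 1, Mir206 (ENSMUSG00000065559.1) spans 20679010 to 20679082 and Mir133b (ENSMUSG00000065480.1) spans 20682769 to 20682887, both on the forward strand with 3686 bases between them. Both Mir206 and Mir133b lie within the long non-coding RNA gene Gm28653, which RefSeq lists as Lincmd1. An annotated exon of Gm28653 covers 60 of the 73 bases of the Mir206 hairpin and all 119 of the Mir133b hairpin. On chromosome 2, Mir1a-1 (ENSMUSG00000070144.1) spans 180389048 to 180389124 and Mir133a-2 (ENSMUSG00000065460.1) spans 180398379 to 180398482, on the forward strand with 9254 bases between them. No GENCODE gene overlaps either hairpin, and RefSeq places both within the non-coding host gene Mir1a-1hg. On chromosome 18, Mir1a-2 (ENSMUSG00000106348.1) spans 10785481 to 10785552 and Mir133a-1 (ENSMUSG00000065399.2) spans 10782909 to 10782976, on the reverse strand with 2504 bases between them. Both lie in an intron of Mir133a-1hg on its strand and in an intron of the ubiquitin ligase gene Mib1 on the opposite strand. Mir1b (ENSMUSG00000080662.1) spans 10785446 to 10785567 on the forward strand there, so it covers all 72 bases of Mir1a-2 from the other side.

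By assigned reads, which leave out reads aligned to several places, Mir206 was by far the highest of the 7 genes. It had 54848 counts in replicate 1 and 393515 in replicate 2, which are 34864 and 72482 CPM. It ranked 9 among all microRNA genes in replicate 1 and 3 in replicate 2, and by its mean of 53673 CPM ± 26600 (SD, n = 2) it ranked 5. Both libraries were high, and replicate 2 was the higher one. As a check of the labelled tissue, this marker of skeletal muscle was thus among the most abundant genes, whereas the other defining muscle microRNAs, miR-1 and miR-133, had few assigned reads.

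The miR-1 genes, whose mature product shares the seed of miR-206, were counted at far lower levels. Mir1a-2 had 595 and 1727 counts, or 378 and 318 CPM, in replicates 1 and 2. Mir1a-1, its copy on chromosome 2, had 22 and 86 counts, or 14.0 and 15.8 CPM. By counts of assigned reads, Mir206 was 92.2-fold above Mir1a-2 in replicate 1 and 228-fold above it in replicate 2. These factors leave out reads aligned to several places, so they need not hold for the mature microRNAs. Mir1b, annotated opposite Mir1a-2, had 1 and 6 counts on its own strand and did not reach 2 CPM in either library, the minimum used here for detection. The 595 and 1727 reads opposite Mir1b are the same numbers as those on Mir1a-2, which covers the same bases.

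The miR-133 genes had few assigned reads on all 3 chromosomes. Mir133b, the partner of Mir206, had 44 and 146 counts, or 28.0 and 26.9 CPM, so its libraries lay close together. Mir133a-1, the partner of Mir1a-2, had 19 and 124 counts, or 12.1 and 22.8 CPM, with replicate 2 higher. Mir133a-2, the partner of Mir1a-1, had 12 and 11 counts, or 7.63 and 2.03 CPM, with replicate 1 higher. Summed over the 3 genes, miR-133 held 47.7 CPM in replicate 1 and 51.8 CPM in replicate 2, a mean of 49.7 CPM ± 2.89 (SD, n = 2).

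**Figure D1:**
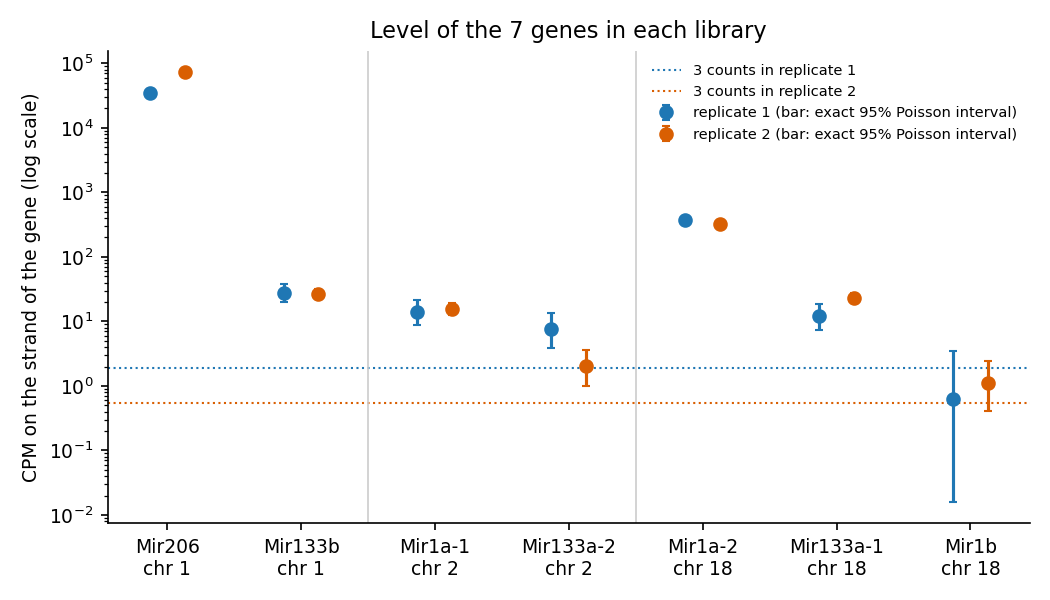
Level of each gene in CPM on a logarithmic axis, by chromosome (grey lines separate the chromosomes), with 1 point per library, its exact 95% Poisson interval, and dotted lines at the level of 3 counts in each library. Mir206 stands at 34864 and 72482 CPM, Mir1a-2 at 378 and 318 CPM, and the other 5 genes at 28.0 CPM or lower.

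In order of their mean levels the genes were Mir206, Mir1a-2, Mir133b, Mir133a-1, Mir1a-1, Mir133a-2 and Mir1b. Mir206 and Mir1a-2 were each above the next gene in both libraries with counting intervals apart. Mir133b was above Mir133a-1 in both libraries, but their intervals were apart only in replicate 1. Mir133a-1 (17.5 CPM ± 7.61) and Mir1a-1 (14.9 CPM ± 1.31; SD, n = 2 each) did not differ beyond their spread and changed places between the libraries. Mir1a-1 was above Mir133a-2 (4.83 CPM ± 3.96) in both libraries, with overlapping intervals in replicate 1. Mir133a-2 was above Mir1b (0.870 CPM ± 0.332) in both libraries, with intervals apart in replicate 1 and overlapping in replicate 2, and their means did not differ beyond the spread between libraries. Of the 7 genes, 6 reached the detection minimum in both libraries, as did 324 of all 2202 genes, whose median level was 130 CPM. Mir206 and Mir1a-2 were above that median, and the other 4 detected genes were below it.

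Together the 7 genes held 3.53% of microRNA-gene counts in replicate 1 (exact Clopper-Pearson 95% interval 3.502 to 3.559) and 7.29% in replicate 2 (7.265 to 7.309). Without Mir206 the other 6 held 0.044% and 0.039%.

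Within every pair the miR-1 or miR-206 gene was counted above its miR-133 neighbour, by very different factors. Neighbours are counted in the same library, so their ratio needs no scaling between libraries. It leaves out reads aligned to several places, which neighbours may lose unequally, so it need not hold for their transcripts. The longest stretch shared with a microRNA hairpin elsewhere was 13 bases in Mir206, 21 in Mir133b, 28 in the Mir1a genes and 31 in the Mir133a genes. On chromosome 1, Mir206 had 1247 counts for each count of Mir133b in replicate 1 (exact 95% interval 928 to 1716) and 2695 in replicate 2 (2292 to 3192). On chromosome 18, Mir1a-2 had 31.3 counts for each count of Mir133a-1 in replicate 1 (19.9 to 52.4) and 13.9 in replicate 2 (11.6 to 16.8). On chromosome 2, Mir1a-1 had 1.83 counts for each count of Mir133a-2 in replicate 1 (0.869 to 4.06) and 7.82 in replicate 2 (4.16 to 16.2). The interval for replicate 1 on chromosome 2 includes equal counts.

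The 3 ratios did not move together between the libraries. On chromosomes 1 and 2 the ratio was higher in replicate 2, and on chromosome 18 it was higher in replicate 1. In each pair the intervals of the 2 libraries did not overlap. As mean log2 ratios the pairs stood at 10.84 ± 0.79, 4.38 ± 0.83 and 1.92 ± 1.48 (SD, n = 2) for chromosomes 1, 18 and 2. The smallest difference between these means, that between chromosomes 18 and 2, is larger than either SD.

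Between the copies on different chromosomes, the one on chromosome 18 was counted more often. Of the counts on Mir1a-1 and Mir1a-2 together, Mir1a-2 held 96.4% in replicate 1 (Clopper-Pearson 95% interval 94.7 to 97.8) and 95.3% in replicate 2 (94.2 to 96.2), so the libraries gave overlapping intervals. Of the counts on both Mir133a genes, Mir133a-1 held 61.3% of 31 counts in replicate 1 (42.2 to 78.2) and 91.9% of 135 in replicate 2 (85.9 to 95.9). The interval for replicate 1 includes an equal split, and the intervals of the libraries did not overlap. The copies share stretches of sequence, given below, and reads aligned to several places were given to no gene. How many such reads came from these copies is not recorded, so these are shares of the assigned reads and not of transcription.

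**Figure D2:**
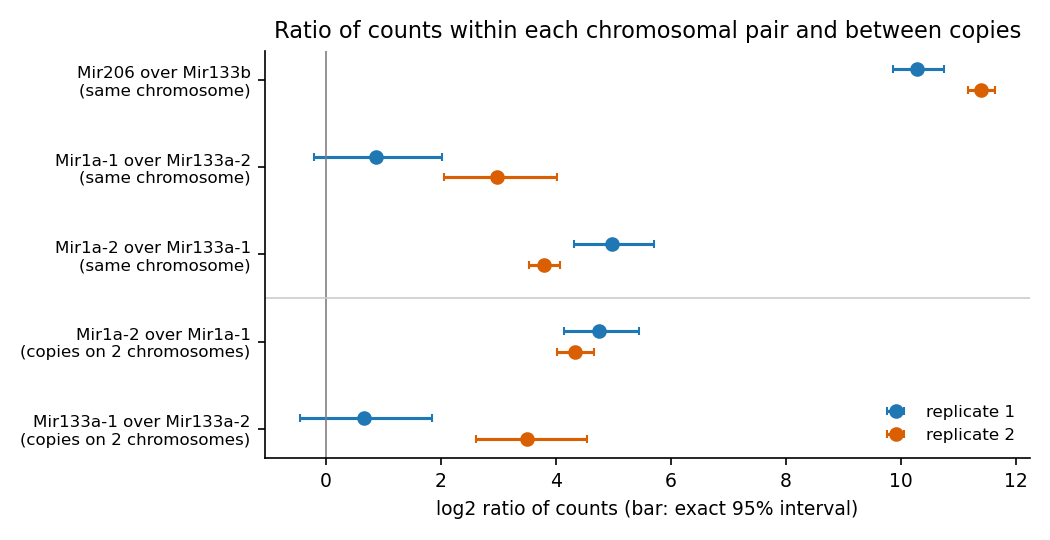
Log2 ratio of counts in each library, with exact 95% intervals from counting error, for the 3 pairs on the same chromosome (above the grey line) and for copies on different chromosomes (below it). The chromosome 1 ratio lies near 10.28 and 11.40, far right of all others, and intervals reach 0 only for Mir1a-1 over Mir133a-2 and Mir133a-1 over Mir133a-2 in replicate 1.

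The hairpins differ greatly in how much sequence they share with hairpins at other places in the genome. Mir206 shared at most 13 consecutive bases with any other annotated microRNA hairpin on either strand. Mir133b shared 21 bases with each Mir133a hairpin. The stretch lies in the miR-133b-3p sequence printed above, which shares 21 of its 22 bases with them. Mir1a-1 shared 28 bases with Mir1a-2 and, on the opposite strand, with Mir1b. The Mir133a hairpins shared 31 bases with each other. The miR-1a-1-5p arm printed above shared at most 14 of its 23 bases with Mir1a-2 or Mir1b, so a full-length read of that arm matches neither of them.

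Cut into windows of 22 bases, the length of miR-206-3p, none of the 52 windows of Mir206 and none of the 98 of Mir133b occurred in a hairpin elsewhere. In Mir1a-1 and Mir1a-2, 7 of 56 and 7 of 51 windows did, and in Mir133a-2 and Mir133a-1, 13 of 83 and 13 of 47. With windows of 20 bases, 2 of the 100 windows of Mir133b were shared, and still none of the 54 of Mir206. Thus 5 of the 7 genes shared a window of 22 bases and 6 shared one of 20. Windows were spread evenly over each hairpin and reads need not be, so these fractions are not shares of reads. The stretches of 28 bases in the Mir1a hairpins and 31 in the Mir133a hairpins are long enough to hold an arm of 22 bases. Apart from miR-1a-1-5p, arms of the Mir1a and Mir133a genes were not among the RefSeq sequences used. Whether those arms lie in the stretches was therefore not examined.

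Reads that aligned to several places were given to no gene in the deposited tables, and they outnumbered those that were. They made up 5050915 reads, or 68.6%, in replicate 1 and 16790938, or 69.7%, in replicate 2. The 4 genes with copies on chromosomes 2 and 18 (Mir1a-1 with Mir1a-2, and Mir133a-1 with Mir133a-2) together had 648 and 1948 counts. For each of these counts there were 7795 reads aligned to several places in replicate 1, and replicate 2 had 8620. Their genes of origin are not recorded, so the levels of these 4 genes are uncertain. That of Mir133b is uncertain too, at least for reads that lack the base in which it differs. How the aligner treated mismatches is not known, so other reads of Mir133b may also be affected. The part of unassigned reads in the low levels was not tested on reads.

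The 7 genes were set beside all other microRNA genes by the longest stretch shared with a hairpin elsewhere. Levels differed at the same length, with Mir1a-1 and Mir1a-2, which share the same 28 bases, at 14.9 and 348 CPM. Mir133b, with 21, was below Mir1a-2. The length does not record whether a mature arm lies in the shared stretch, and a part of shared sequence in the levels was not tested. Of 1032 genes that shared 22 bases or more with a hairpin elsewhere, 63 were detected, with a median of 47.5 CPM and a highest level of 4586 CPM in Mirlet7f-2. Mir1a-2 had 12 of these 63 above it, whereas Mir133a-1, Mir1a-1 and Mir133a-2 were below the median. Of 1067 genes that shared 17 bases or fewer, 237 were detected, with a median of 128 CPM, and 2 of these were above Mir206. Of 48 genes that shared 18 or 19 bases, 9 were detected, with a median of 14593 CPM, and none of the 7 genes is among them. Of genes that shared 20 or 21 bases, 15 were detected, with a median of 1418 CPM and a highest level of 98707 CPM in Mir378a. Mir133b was the lowest of those 15. The lower median of detected genes with shared sequence depended on the length chosen. With at least 18 shared bases it was 158 CPM, above the 128 CPM of the others. With at least 20 it was 107 CPM, below the 136 CPM of the others. Genes with at least 18 shared bases were still detected less often, 7.67% of them against 22.2% of the others. Of the 3 detected genes with exactly 21 shared bases, Mir411 had 19135 CPM ± 2361, Mir146 had 479 CPM ± 119 and Mir133b had 27.4 CPM ± 0.761 (SD, n = 2).

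**Figure D3:**
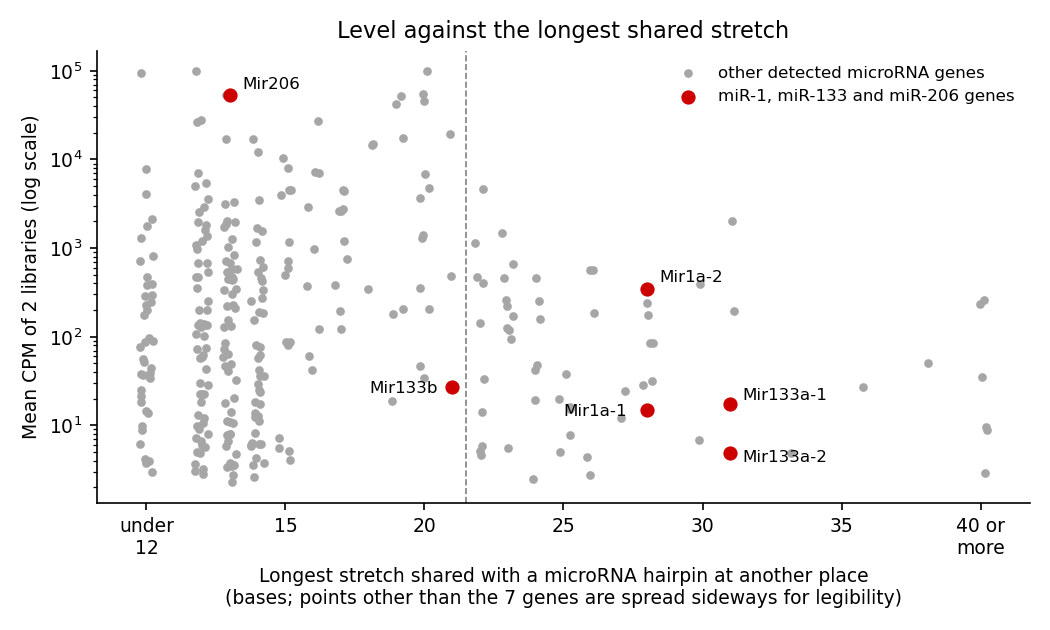
Mean CPM of 2 libraries on a logarithmic axis against the longest stretch of bases shared with a microRNA hairpin at another place, for the 324 detected genes, with a dashed line below 22 bases. Red points mark 6 of the 7 genes: Mir206 is at 13 bases among the highest genes, Mir133b is low at 21, and the other 4 are at 28 or 31 among genes that do not exceed 4586 CPM.

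A list of 47 other genes with copies at several loci, such as the let-7a, miR-24 and miR-30c genes, ranged from 0 to 4586 CPM. Of these, 36 were detected, 1 had no count, and the median over all 47 was 31.6 CPM. Mir1a-2 was above this median, and Mir133a-1, Mir1a-1 and Mir133a-2 were below it.

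The genes also differed between the libraries, in both directions. A two-sided exact binomial test took the library totals as odds and compared these libraries, not conditions. Its p-values cover counting error only and not the spread between libraries. Of the 7 genes, 6 reached the minimum of 10 summed counts for it. After Benjamini-Hochberg adjustment over all 364 genes tested, 4 of the 6 passed a threshold of 0.05, in a background where 45.3% of all genes tested passed. Mir206 and Mir133a-1 were higher in replicate 2, the direction of 15.1% of all genes tested, and Mir1a-2 and Mir133a-2 were higher in replicate 1, the direction of 30.2%. A share of 4 in 6 on so few genes was not tested against that background.

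Mir206 was 2.08-fold higher in replicate 2, a log2 ratio of 1.06 (exact 95% interval 1.04 to 1.07). Of the 364 genes tested, 8 had a log2 ratio at least as high, Mir206 included. Mir133a-1 was 1.85-fold higher (log2 ratio 0.89, interval 0.22 to 1.70, exact binomial adjusted p = 0.0167). Mir133a-2 was 3.75-fold higher in replicate 1 (log2 ratio -1.91, interval -3.24 to -0.60, exact binomial adjusted p = 0.0051), on 12 and 11 counts. Mir1a-2 was 1.19-fold higher in replicate 1 (log2 ratio -0.25, interval -0.38 to -0.11, exact binomial adjusted p = 0.0011).

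Mir1a-1 had a log2 ratio of 0.16 (interval -0.51 to 0.93) and Mir133b of -0.07 (-0.55 to 0.46), with exact binomial adjusted p = 0.809 and 0.896. The copies Mir133a-1 and Mir133a-2 thus passed the test in opposite directions, and Mir206 passed while its neighbour Mir133b did not. The spread of a single gene between these libraries, estimated with edgeR across the detected genes of these same libraries, was an SD of 0.50 for the log2 ratio. The ratios of Mir206, Mir133a-1 and Mir133a-2 were beyond 1 such SD and that of Mir1a-2 was within it. This SD leaves out counting error, which is large for the Mir133a genes. The interval of Mir133a-1, from 0.22, reaches inside it, and Mir133a-2 rests on 12 and 11 counts. How many of all genes tested lie beyond it was not counted, so these 3 genes are not shown to stand out. The median log2 ratio was 0.04 over the 6 genes and -0.15 over all genes tested. DESeq2 size factors move every log2 ratio up by 0.13, and with them Mir1a-2 no longer passed (log2 ratio -0.12, exact binomial adjusted p = 0.14) while Mir133b turned to 0.059. With library totals, 55 genes passed with the higher value in replicate 2 and 110 with the lower value there, against 94 and 80 with these factors.

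**Figure D4:**
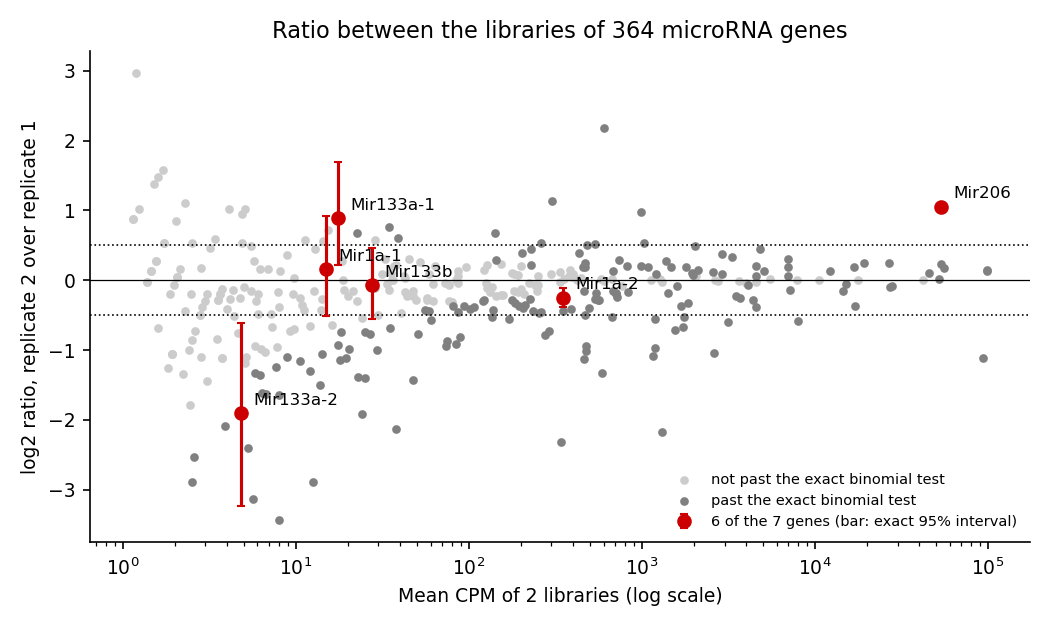
Log2 ratio of replicate 2 over replicate 1 against mean CPM on a logarithmic axis for the 364 genes tested, with red points and exact 95% intervals for 6 of the 7 genes and dotted lines at the SD of 0.50 for a single gene. Mir206 stands at 1.06 among the highest genes, Mir133b and Mir1a-1 straddle 0, and Mir133a-1 and Mir133a-2 lie on opposite sides of it.

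Other muscle microRNAs and markers of other cell types also differed between the libraries, and their part in the ratios above was not tested. Over all genes tested, 15.1% passed as higher in replicate 2 and 30.2% as higher in replicate 1. The 6 other muscle genes tested ranged from 8.88 CPM (Mir3107) to 98707 CPM (Mir378a). Of these, 4 were higher in replicate 2, and Mir208a was higher in replicate 1, at 31.1 and 18.8 CPM in replicates 1 and 2. Mir3107 passed in neither direction. Mir208b and Mir499, which lie in the myosin genes Myh7 and Myh7b and mark slow fibres, were higher in replicate 2, at 219 and 994 CPM and at 188 and 416 CPM in replicates 1 and 2. The summed share of smooth muscle and fibroblast markers was 13.3% in replicate 1 and 6.34% in replicate 2. Most of it was Mir143, at 127590 and 59272 CPM. Of 4 tested genes 2 were higher in replicate 1, and 1, Mir214, was higher in replicate 2, at 1674 and 2355 CPM. The sum therefore does not describe fibroblast markers alone. Erythroid markers held 0.270% and 0.0587%, with 2 of 2 higher in replicate 1. White blood cell markers held 0.270% and 0.200% (3 of 4 higher in replicate 1) and epithelial markers 0.0414% and 0.0230% (3 of 3). Neural markers held 0.158% and 0.0750%, with the 1 gene tested, Mir338, higher in replicate 1, and Mir124a-1, Mir124a-2, Mir124a-3 and Mir9-2 had no count. Mir126a, the endothelial marker, held 9.33% and 10.3%, higher in replicate 2. In whole tissue, fewer cells of a type and less RNA per cell cannot be told apart.

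With 2 libraries no pattern across samples can be matched, so likeness was measured as the distance between genes in log2(CPM + 1) over both libraries. The detected genes nearest to Mir206 were Mir22 (0.59), Mir23a (0.65) and Mir23b (0.70). Nearest to Mir1a-2 were Mir30b (0.02), Mir223 (0.14) and Mir494 (0.17), and nearest to Mir133b were Mir187 (0.10), Mir24-1 (0.30) and Mir511 (0.33). Mir206 lay farther from its nearest gene than the other 2 did: Mir22 had 49134 CPM in replicate 1 and 57682 in replicate 2, whereas Mir30b had 376 and 323 CPM, within a few CPM of Mir1a-2.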

How the data were processed

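The authors deposited raw counts, 1 table per library, with 3 count columns per microRNA gene and 4 rows that tally reads given to no gene. From the values, the first of these columns ignores strand, the second holds sense reads, which were used here, and the third antisense reads. Per the labels, reads were placed on mm10 and the size range was below 30, and per the deposited readme files the annotation was GENCODE M21. For the aligner and the counter, the sources used here give no name. All 2202 identifiers matched. Tally rows stayed out of library totals: in replicates 1 and 2, reads aligned to several places were 68.6% and 69.7% of all reads, unaligned reads 7.95% and 6.08%, and reads outside annotated genes 2.14% and 1.71%.

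CPM were not divided by length, since a count is 1 read of a small RNA. Counts belong to whole hairpins, and they do not record the arm or the sequence of a read. Single ratios between libraries used an offset of 0.5 counts. Shared stretches from 12 to 40 bases were searched among GENCODE M21 hairpins of all genes, on either strand, leaving out overlapping loci; the rest of the genome was not used. TMM (edgeR 4.0.16) and DESeq2 1.42.0 size factors, from genes with at least 10 summed counts, were alternatives (R 4.3.3), as were the column that ignores strand, a denominator of all aligned reads, no filter, other window lengths and detection minimums, and each replicate left out. The exact binomial test was run in Python 3.11.15 with scipy 1.17.1, after it had been tested on simulated data. These data were drawn with counting error only, so they do not show how the test behaves under spread between libraries. For tables and plots, pandas 2.3.3, numpy 2.4.6 and matplotlib 3.10.9 were used. Named were the 7 genes, the members of fixed lists by counts and range, and the 3 detected genes nearest to each of Mir206, Mir1a-2 and Mir133b; further genes (Mirlet7f-2, Mir378a, Mir411, Mir146) were named after their values were seen. Members and lists were chosen with earlier results of these data known. The list of other muscle genes held 7 symbols for 6 genes, since RefSeq gives mir-486b as a synonym of Mir3107.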

Additional observations from a re-analysis of the deposited data

Results flagged for a closer look

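Reads with several alignments came to 5050915 in replicate 1 and 16790938 in replicate 2. They are pointed out because they lie outside the counts compared above. They were 3.21 and 3.09 times all counts on microRNA genes. Which of them came from the miR-1 and miR-133 genes was not tested.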

How the results depend on the processing

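No paired analysis was possible because the libraries form 1 group. With the either-strand column Mir1a-2 and Mir1b were listed at 0, since reads on their shared bases were then tallied as ambiguous, so the share of Mir1a-2 beside Mir133a-1 and beside Mir1a-1 became 0% and its ratio could not be computed. With all aligned reads as denominator the summed share of the 7 genes was 1.28%, from 5.41%. DESeq2 size factors gave 94 genes higher in replicate 2, from 55, and Mir133b, which did not pass the test, changed sign to 0.059, or to 0.011 with TMM scaling.

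Single libraries gave a summed share of 3.53 to 7.29%. The share of Mir206 beside Mir133b was 99.92 to 99.96%, of Mir1a-1 beside Mir133a-2 64.7 to 88.7%, of Mir1a-2 beside Mir133a-1 93.3 to 96.9%, of Mir1a-2 beside Mir1a-1 95.3 to 96.4%, and of Mir133a-1 beside Mir133a-2 61.3 to 91.9%. The number of the 7 genes past the test was 3 or 4 in all settings run. Depth limits Mir133a-2 and Mir1b most, at 12 and 1 counts in replicate 1.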
